A study of Mus musculus with 9 samples.

Results

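The BCL2 family decides whether a cell under stress keeps its outer mitochondrial membrane closed, and its transcripts were followed here through RANKL treatment of mouse bone marrow macrophages with and without vitamins D and K. The members were taken by gene symbol from the deposited gene table: Bcl2, Bcl2l1, Mcl1, Bcl2a1a, Bcl2a1b, Bcl2a1d, Bcl2l11, Bid, Bad and Bak1, which are 10 of the 28379 genes listed. All 10 passed the filter on low counts that left 17002 genes for testing. Bulk poly(A) RNA-seq was available for 9 libraries of primary macrophages grown from bone marrow (BMDMs), 3 in each of 3 groups. All groups were grown in M-CSF at 20 ng/ml, the factor that keeps macrophage precursors alive, and the cells came from C57BL/6J mice that carried no transgene or deletion. PBS libraries had no RANKL. RANKL, the cytokine that turns these precursors into osteoclasts, was given to the RANKL group at 100 ng/ml for 48 h. The RANKL + Vit D + K group received the same RANKL together with vitamin D (calcitriol, 1000 nM) and vitamin K (menaquinone-4, 20 μM per the sample labels, while the written methods give another dose). No library received a single vitamin, so that the shares of vitamin D and vitamin K cannot be told apart. The written methods describe libraries made from pooled RNA, and the labels do not say whether the replicates were separate cultures or animals. The p-values therefore measure the spread between these libraries, which may be technical.

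BCL2 family proteins share short BCL2 homology (BH) motifs and fall into opposing classes. Pro-survival members such as BCL2, BCL-XL (from Bcl2l1), MCL1 and A1 (from the Bcl2a1 genes) hold the effectors BAK and BAX in check. BH3-only members such as BIM (from Bcl2l11), BID and BAD bind the pro-survival proteins, and BIM and BID can also activate the effectors, which then open the mitochondrial membrane, release cytochrome c and start the caspase cascade. Osteoclasts are short-lived cells whose survival depends on M-CSF and RANKL signals, and macrophages grown from bone marrow depend on M-CSF. MCL1, BCL-XL, A1 and BIM are the members best known from these cells. RNA levels do not report on the phosphorylation, cleavage or protein turnover through which much of this family is controlled.

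The libraries held 65915112 to 68229647 counts each. Vitamin replicate 2 stood apart: its root-mean-square distance from its group mean over the genes tested was 0.73 on the log2 scale, against 0.446 to 0.632 in the other 8 libraries. The values without it are given wherever it changes a member's call. The treatments left their marks on osteoclast genes, of which 8 of 8 rose with RANKL and 7 of 8 fell when the vitamins were added. Macrophage markers were present in every library, and none of the 6 was at 0, although 4 of 6 (Csf1r, Adgre1, Lyz2 and Mertk) fell and Cd68 rose with the vitamins. In bulk RNA, fewer cells of a type and less RNA per cell cannot be told apart.

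Mcl1 was by far the most abundant member in every library. On the FPKM scale, which divides by gene length and so allows levels of different genes to be set side by side, Mcl1 stood at 223, 206 and 224 in the PBS libraries. Bak1 followed with a group mean of 25.5 ± 2.95 (SD, n = 3) and Bcl2l11 with 13.6 ± 1.55. In the PBS group, Bcl2l11 and Bcl2a1b, Bcl2a1b and Bad, and Bad and Bid were neighbours in this order whose libraries overlapped. Bcl2l1 stood at 3.19 ± 0.309 FPKM, clear of its neighbours on both sides. Bcl2a1d, Bcl2a1a and Bcl2 were the lowest members, and Bcl2 at 0.183 ± 0.055 FPKM came last. The order in the RANKL group again ran from Mcl1 through Bak1 and Bcl2l11 at the top to Bcl2 at the bottom. With the vitamins, Mcl1 remained first, but Bcl2l1 came next after Bak1 with overlapping libraries, and the mean of Bcl2 lay next to those of Bid and Bcl2l11, whose libraries its own overlapped. The lowest places then belonged to Bad, Bcl2a1d and Bcl2a1a.

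**Figure D1:**
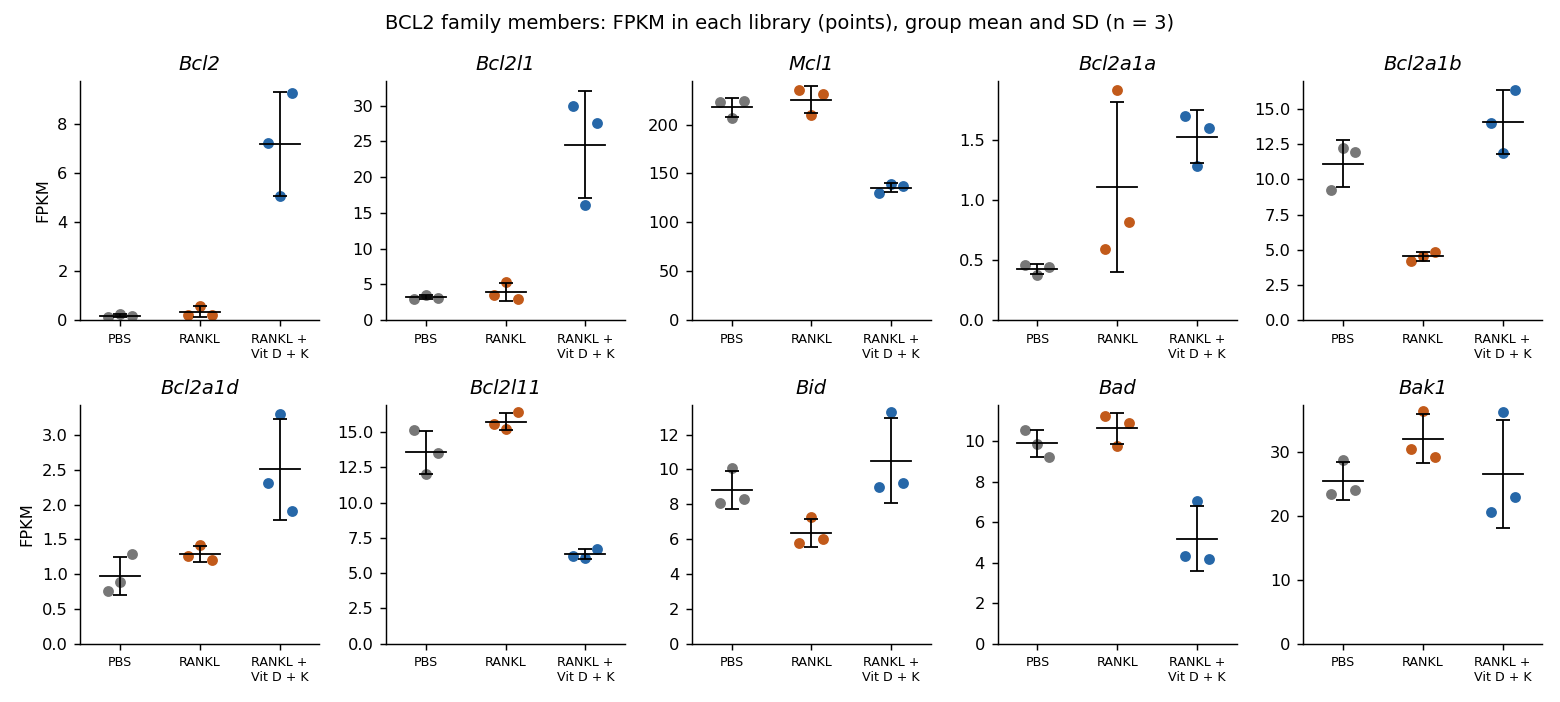
FPKM of the 10 members in each library (points), with the group mean (long bar) and SD (whiskers, n = 3), on linear axes that start at 0 and differ between genes. Bcl2 and Bcl2l1 sat near the bottom of their axes in the PBS and RANKL groups and rose in all 3 vitamin libraries, whereas Mcl1, Bcl2l11 and Bad sat lower in the vitamin libraries than in either other group.

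With RANKL alone, few members differed past the threshold. Among the 10 members, 1 was called at an adjusted p under 0.05 (edgeR quasi-likelihood test, Benjamini-Hochberg adjustment over all genes tested), against 3.61% of all genes tested in this comparison. This member was Bcl2a1b, a pro-survival gene of myeloid cells. It stood at 9.21, 12.2 and 11.9 FPKM in the PBS libraries and at 4.20, 4.53 and 4.86 FPKM with RANKL. Every RANKL library was below every PBS library, and the fitted difference was -1.42 (SE 0.211, log2 scale), a 2.67-fold decrease with an adjusted p of 0.0103. The call was lost without PBS replicate 3 (adjusted p = 0.0584) or without RANKL replicate 1 (adjusted p = 0.0551), while the direction held.

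Bid, which is cut by caspase 8 into an activator of BAK and BAX, was the member closest to the threshold. Its libraries held 8.10, 10.1 and 8.28 FPKM with PBS and 5.77, 7.25 and 5.99 FPKM with RANKL, without overlap. The log2 difference of -0.60 (SE 0.141) had an adjusted p of 0.0514 by edgeR. With the replicate number as a block the adjusted p was 0.0228, and without vitamin replicate 2, which enters the shared estimate of the spread, it was 0.0129. Bcl2a1a, at 0.460, 0.374 and 0.439 FPKM with PBS and 0.593, 1.91 and 0.820 FPKM with RANKL, differed by 1.22 (SE 0.460) with an adjusted p of 0.195. Its RANKL libraries all lay above the PBS libraries, and RANKL replicate 2 was far above its fellows.

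The other 7 members had log2 differences between -0.07 and 0.72 with RANKL, none of them past the threshold. On the FPKM scale, libraries of the groups did not overlap for 5 of the 10 members, where 35.2% of all genes tested did not. With RANKL, 3 of these members were higher (Bcl2a1a, Bcl2l11 and Bak1), beside 22.4% of all genes tested, and 2 were lower (Bcl2a1b and Bid), beside 12.9%. Bcl2 stood at 0.144, 0.246 and 0.159 FPKM with PBS and at 0.199, 0.591 and 0.214 FPKM with RANKL, a log2 difference of 0.72 (95% interval -0.24 to 1.68) that fell to 0.09 without RANKL replicate 2. Mcl1 differed by -0.07 (95% interval -0.33 to 0.19), Bcl2l11 by 0.09 (95% interval -0.22 to 0.40) and Bad by -0.01 (95% interval -0.40 to 0.37). These intervals leave room for changes of moderate size in Bcl2 and only for small ones in Mcl1. Over the members the median log2 difference was 0.13, and over all genes tested it was -0.04.

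Adding vitamins D and K to RANKL moved 8 of the 10 members, against 33.7% of all genes tested. Higher were 5 members (Bcl2, Bcl2l1, Bcl2a1b, Bcl2a1d and Bid), where 16.4% of all genes tested were called higher, and lower were 3 (Mcl1, Bcl2l11 and Bad), where 17.2% were. The same 8 had groups of libraries that did not overlap on the FPKM scale, as did 46.2% of all genes tested (17% higher and 29.2% lower). Bcl2a1a and Bak1 were not called. The median log2 difference of the members was 0.76, beside -0.04 for all genes tested. The changes ran in both directions within the pro-survival class and within the BH3-only class.

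Among the pro-survival genes, Bcl2 (chr1:106538178-106714274, minus strand) changed most. It rose from 0.199, 0.591 and 0.214 FPKM with RANKL to 7.24, 5.06 and 9.29 FPKM with the vitamins, or from 138, 406 and 154 counts to 4954, 3565 and 6345 counts. The lowest vitamin library was thus several times above the highest RANKL library. The fitted increase was 24.4-fold (log2 4.61, SE 0.471, adjusted p = 0.00049 by edgeR). The size depends on RANKL replicate 2, the highest of its group, without which the log2 difference was 5.24.

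Bcl2l1 (chr2:152780668-152831728, minus strand), which encodes BCL-XL, stood at 3.51, 5.32 and 2.99 FPKM with RANKL and at 30.0, 16.1 and 27.6 FPKM with the vitamins. Vitamin replicate 2 was the lowest of its group, yet still far above every RANKL library. The increase was 7.08-fold (log2 2.82, SE 0.299, adjusted p = 0.000581 by edgeR), and this call held in all 21 alternatives.

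Mcl1 (chr3:95658788-95663176), whose protein is turned over quickly and on which myeloid cells lean for survival, went the other way. Its libraries fell from 235, 210 and 231 FPKM with RANKL to 130, 139 and 138 FPKM with the vitamins, with little spread inside either group. The decrease was -0.59 on the log2 scale (SE 0.115, adjusted p = 0.00576 by edgeR). In FPKM the mean loss of Mcl1, from 225 to 136, was larger than the whole vitamin level of Bcl2l1 (24.6) and Bcl2 (7.20) together.

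**Figure D2:**
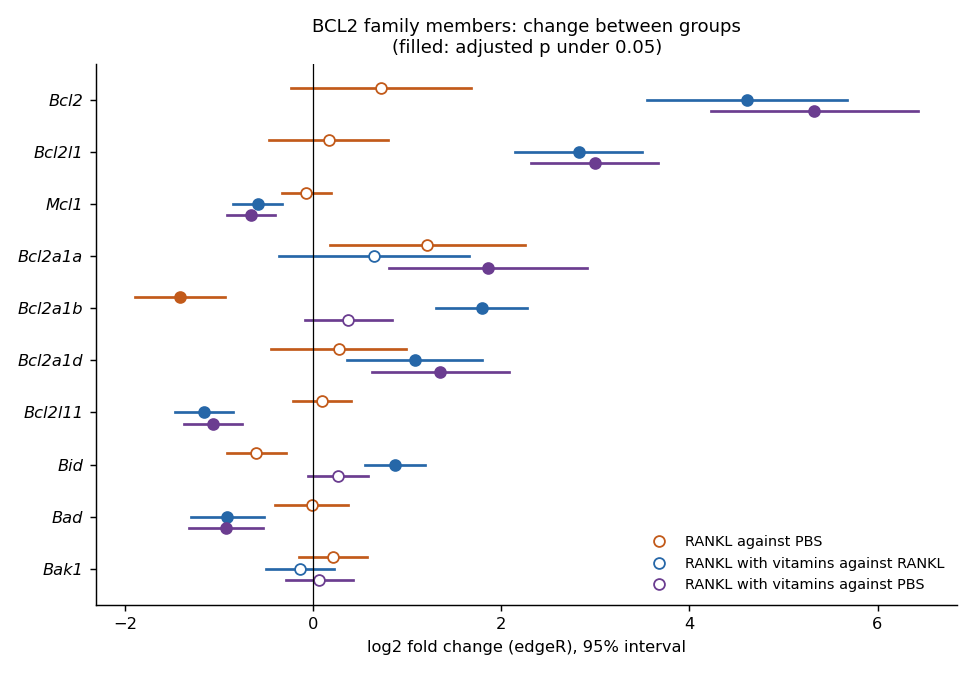
Fitted log2 fold change (x axis) of each member (y axis) in the 3 comparisons, with bars for the 95% interval and filled points for an adjusted p under 0.05. Bcl2 and Bcl2l1 lay at 4.61 and 2.82 with the vitamins against RANKL, Mcl1, Bcl2l11 and Bad lay below 0 in both vitamin comparisons, and Bcl2a1b was the filled point for RANKL against PBS.

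The A1 genes needed separate care because they are near copies of each other. Bcl2a1a (chr9:88956900-88962419), Bcl2a1b (chr9:89199209-89207827) and Bcl2a1d (chr9:88723285-88731914, minus strand) each have 2 exons and a coding sequence of 519 bases in GENCODE M21 on the GRCm38 build. Bcl2a1a and Bcl2a1b differ at 11 coding bases (97.9% identity), Bcl2a1a and Bcl2a1d at 7 (98.7%) and Bcl2a1b and Bcl2a1d at 6 (98.8%). Of the 12 coding positions at which the copies differ in any way, 7 lie in the first 150 bases. These bases are printed from the reference transcripts, with the differing positions in capitals, since they hold most of the positions that tell the copies apart.
Bcl2a1a: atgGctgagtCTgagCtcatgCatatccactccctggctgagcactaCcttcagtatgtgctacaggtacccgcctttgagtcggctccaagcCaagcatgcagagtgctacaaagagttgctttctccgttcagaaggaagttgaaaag
Bcl2a1b: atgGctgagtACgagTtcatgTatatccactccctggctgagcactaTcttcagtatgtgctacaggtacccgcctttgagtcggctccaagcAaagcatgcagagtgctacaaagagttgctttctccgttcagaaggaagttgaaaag
Bcl2a1d: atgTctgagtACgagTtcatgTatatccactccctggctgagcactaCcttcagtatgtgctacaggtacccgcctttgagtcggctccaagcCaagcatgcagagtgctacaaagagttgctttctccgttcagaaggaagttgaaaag
Of all 150-base stretches of each reference transcript, which is the length of 1 read of a pair, 71.8% of Bcl2a1a, 85.8% of Bcl2a1b and 69.7% of Bcl2a1d occurred in neither of the other copies. A read from the rest cannot be assigned by its own sequence, and whether its mate held a differing position was not examined. How the counting divided such reads is not given in the sources used here, so values of single copies are uncertain.

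Bcl2a1b rose from 4.20, 4.53 and 4.86 FPKM with RANKL to 14.0, 11.9 and 16.4 FPKM with the vitamins, a 3.46-fold increase (log2 1.79, SE 0.213, adjusted p = 0.000881 by edgeR). Its vitamin libraries overlapped those of the PBS group. Bcl2a1d went from 1.26, 1.42 and 1.20 to 2.30, 3.30 and 1.905 FPKM, without overlap, a 2.12-fold increase (log2 1.08, SE 0.318, adjusted p = 0.0285). The Bcl2a1d call rested on small counts and was lost without RANKL replicate 1 (adjusted p = 0.0869), RANKL replicate 2 (0.0589), RANKL replicate 3 (0.0874) or vitamin replicate 1 (0.0654), and with no filter on low counts (0.0552). Bcl2a1a, at 1.70, 1.28 and 1.60 FPKM with the vitamins, overlapped the RANKL libraries and differed by 0.65 (SE 0.447, adjusted p = 0.294).

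Summing the counts of the A1 copies sets aside how reads were divided among these 3 genes, provided that each shared read was counted once. It came to 631, 832 and 841 with PBS, to 376, 486 and 443 with RANKL and to 1109, 1048 and 1219 with the vitamins. The sum fell with RANKL (log2 -0.97, SE 0.183, adjusted p = 0.0244) and rose when the vitamins were added (log2 1.54, SE 0.185, adjusted p = 0.000909), both in the edgeR fit. The groups did not overlap in either comparison. Bcl2a1b supplied 86.8 to 90.1% of the sum in the PBS libraries, 57 to 69.8% in the RANKL libraries and 71.3 to 81.9% in the vitamin libraries, so its part was lowest with RANKL. Bcl2a1 transcripts are also abundant in neutrophils, whose markers were read beside them. The summed FPKM of 10 neutrophil markers ranged from 56 to 129 with PBS, from 26.8 to 119 with RANKL and from 6.21 to 6.48 with the vitamins, and Ly6g, Mpo, Elane, Ltf, Retnlg, Cxcr2 and Camp were at 0 in all vitamin libraries. Csf3r, a cytokine receptor gene, held 5.88, 4.71 and 5.99 FPKM of the vitamin sums. Their part in the A1 values was not tested.

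BAK is 1 of the pair of pore-forming effectors, and its gene did not move past the threshold. Bak1 (chr17:27019810-27029009, minus strand) stood at 30.6, 36.5 and 29.3 FPKM with RANKL and at 20.6, 36.3 and 22.9 FPKM with the vitamins. Vitamin replicate 2 sat with the RANKL libraries and its fellows sat below them. The log2 difference was -0.14 (95% interval -0.50 to 0.22, adjusted p = 0.529). Without vitamin replicate 2 it was -0.34 with an adjusted p of 0.0286. The partner effector gene Bax, which was not among the members, stood at 66.1, 64.9 and 66.7 FPKM with RANKL and at 96.3, 73.7 and 86.6 FPKM with the vitamins, an increase of 0.54 (SE 0.152, adjusted p = 0.0246) on the log2 scale. The Bax call was lost on leaving out 5 of the 9 libraries, each singly (highest adjusted p 0.0715).

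The BH3-only genes split. Bcl2l11 (chr2:128126038-128162547), which encodes BIM, a potent killer protein of blood cells and osteoclasts, fell from 15.6, 15.2 and 16.4 FPKM with RANKL to 6.25, 6.05 and 6.75 FPKM with the vitamins. Both groups were tight and far apart, a 2.23-fold decrease (log2 -1.16, SE 0.138, adjusted p = 0.000881 by edgeR). Bad (chr19:6941861-6951899), whose protein is held inactive by survival kinases when growth factors are present, fell from 11.2, 9.77 and 10.9 to 4.31, 7.03 and 4.20 FPKM. Vitamin replicate 2 again lay nearest to the RANKL libraries, and the decrease was 1.88-fold (log2 -0.91, SE 0.173, adjusted p = 0.00513). Bid (chr6:120891930-120916853, minus strand) rose from 5.77, 7.25 and 5.99 to 8.99, 13.3 and 9.22 FPKM, with replicate 2 the highest in both groups. The increase was 1.82-fold (log2 0.87, SE 0.141, adjusted p = 0.00284).

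Genes that overlap the members limit some of these values, because the sources used here do not say whether counting used the strand. Bad shares 620 bases with Gpr137 on the opposite strand. Gpr137 held 573 to 2086 counts per library and Bad itself 804 to 2176. Bid shares 913 bases with Bcl2l13 and 318 with Gm17812, both on the opposite strand. Bcl2l13, a mitochondrial relative of the family, differed by 0.23 (adjusted p = 0.112) between the vitamin and RANKL groups. Bak1 lies opposite Ggnbp1 and Gm50253 over its full length of 9200 bases. Gm50253 held 244 to 777 counts per library. Bcl2a1d lies opposite Gm10634 over 8630 bases, and Gm10634 held at most 7 counts in a library. Bcl2 lies opposite D630008O14Rik over 33103 bases, which had 0 counts in every library. Strand could not separate genes that share it. Bid shares 2094 bases with Gm44260 on its own strand, which held 10 to 131 counts per library, and Bcl2a1b shares 8449 bases with Gm29094 on its own strand, which held at most 27. How reads in these stretches were assigned is not given in the sources used here.

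The make-up of the pro-survival transcripts changed with the vitamins. The 6 pro-survival members summed to 237, 224 and 241 FPKM with PBS, to 245, 223 and 241 FPKM with RANKL and to 185, 177 and 194 FPKM with the vitamins. Mcl1 made up 92.3 to 94.3% of the sum with PBS, 93.8 to 96% with RANKL and 70.2 to 78.7% with the vitamins. Bcl2l1 held 1.24 to 2.38% with RANKL and 9.1 to 16.2% with the vitamins, and Bcl2 held at most 0.265% with RANKL and 2.86 to 4.78% with the vitamins. The total was therefore lower with the vitamins, and a larger part of it came from Bcl2l1, Bcl2 and the A1 genes. The FPKM of Bcl2l1 divided by that of Bcl2l11 was 0.225, 0.35 and 0.182 in the RANKL libraries and 4.8, 2.65 and 4.09 in the vitamin libraries. The ratio of Mcl1 to Bcl2l11 moved less, from 13.8 to 15.1 with RANKL to 20.4 to 23 with the vitamins. The summed FPKM of Bcl2l11, Bid and Bad went from 32.6, 32.2 and 33.3 to 19.5, 26.4 and 20.2. With 3 libraries against 3 an exact permutation test cannot go below p = 0.1, so none was run on these ratios.

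**Figure D3:**
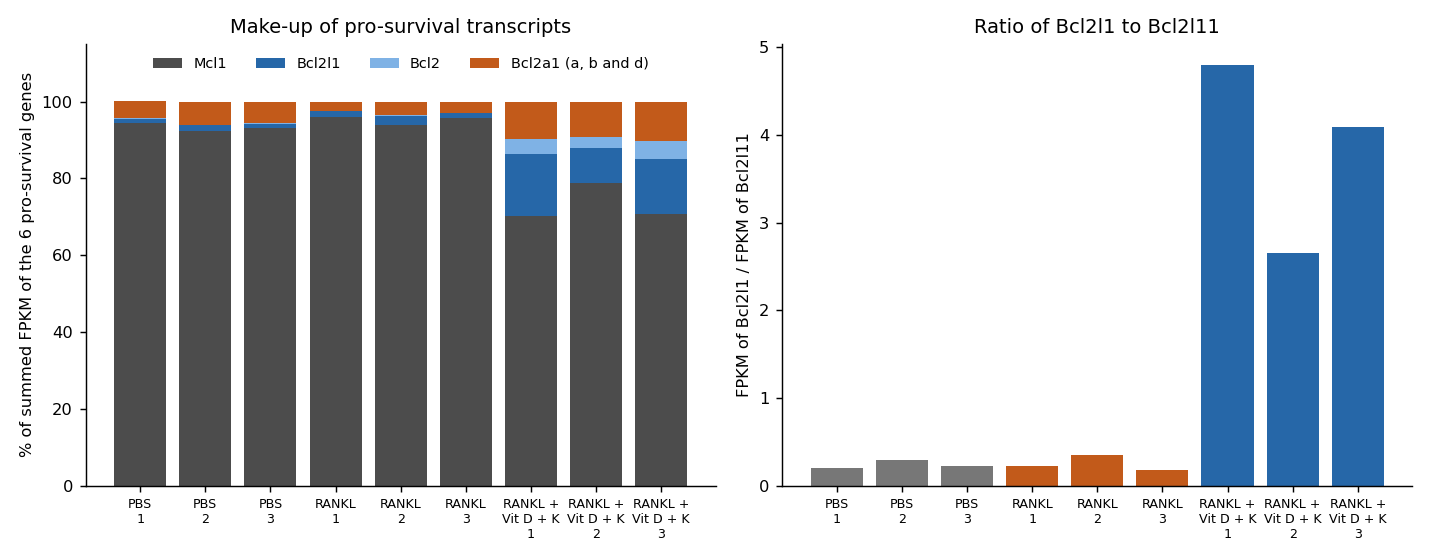
Left, the percentage of the summed FPKM of the 6 pro-survival members held by Mcl1, Bcl2l1, Bcl2 and the A1 genes in each library. Right, the ratio of Bcl2l1 to Bcl2l11 FPKM in each library. Mcl1 filled 92.3% or more of each bar with PBS and RANKL and 70.2 to 78.7% with the vitamins, and the ratio rose from at most 0.35 to at least 2.65.

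Against PBS, the RANKL + Vit D + K group differed in 7 of the 10 members, where 40.8% of all genes tested were called (19.8% higher and 21% lower). This comparison uses the same vitamin libraries as the previous one and the PBS libraries of the first. Bcl2 was 40.2-fold higher (log2 5.33, SE 0.490, adjusted p = 0.000226) and Bcl2l1 7.95-fold higher (log2 2.99, SE 0.301, adjusted p = 0.000296). Bcl2a1a was higher by 1.86 (SE 0.466, adjusted p = 0.0123) and Bcl2a1d by 1.35 (SE 0.321, adjusted p = 0.00969) on the log2 scale. Lower were Mcl1 by a log2 difference of -0.66 (SE 0.115, adjusted p = 0.00242), Bcl2l11 by -1.07 (SE 0.138, adjusted p = 0.000683) and Bad by -0.93 (SE 0.173, adjusted p = 0.0033). The 7 calls held in every alternative that kept these genes apart. Bcl2a1b (0.38, 95% interval -0.09 to 0.84), Bid (0.26, 95% interval -0.05 to 0.58) and Bak1 (0.07, 95% interval -0.29 to 0.43) were not called. For Bcl2a1b the adjusted p was 0.176 in the edgeR fit and 0.0327 without vitamin replicate 2, and the summed A1 count was called higher (log2 0.57, SE 0.181, adjusted p = 0.0333).

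The rest of the family was read from a list of 16 further genes, 15 of which had a row and 11 of which were tested. Bcl2a1c was not analysed here. With the vitamins against RANKL, 2 rose, 1 fell and 8 were not called, so that 27.3% were called, below the 33.7% of all genes tested. Bmf, a BH3-only gene linked to loss of attachment and growth factor, fell from 17.6, 13.3 and 18.2 FPKM to 0.318, 2.32 and 0.713 FPKM. This was the largest change of the list (log2 -3.80, SE 0.568, adjusted p = 0.00199), and it was -4.78 without vitamin replicate 2. Bbc3, which encodes the BH3-only protein PUMA, a p53 target, rose from 5.28, 5.03 and 5.75 to 27.6, 6.72 and 22.2 FPKM (log2 2.01, SE 0.467, adjusted p = 0.0115). Vitamin replicate 2 was only just above the RANKL libraries. Pmaip1, which encodes NOXA, a BH3-only partner of MCL1, differed by -0.12 (adjusted p = 0.714), and Bcl2l2, which encodes the pro-survival protein BCL-W, by -0.22 (adjusted p = 0.205).

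Downstream of the mitochondria, 7 of 14 genes of the apoptosome and caspase list fell with the vitamins, none rose, and their median log2 difference was -0.44. Over all genes tested 17.2% fell, 16.4% rose and the median was -0.04. Casp6, an executioner caspase, fell by 1.20 (SE 0.247, adjusted p = 0.00713) on the log2 scale. Endog and Dffb, nucleases that cut DNA in dying cells, fell by 1.68 (SE 0.358, adjusted p = 0.0081) and by 1.66 (SE 0.518, adjusted p = 0.0355). The Dffb difference was -2.63 without vitamin replicate 2 and -1.27 without vitamin replicate 1. Apaf1, the scaffold of the apoptosome, stood at 11.7, 12.6 and 11.7 FPKM with RANKL and 10.7, 11.4 and 11.9 FPKM with the vitamins (log2 0.08, adjusted p = 0.58).

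Among 10 inhibitors of apoptosis, 2 rose and 2 fell with the vitamins, a share of 40% that lies near the 33.7% of all genes tested. Higher were Naip2 (log2 0.94, SE 0.246, adjusted p = 0.0184), of a multigene family whose copies may share reads, and Cflar (log2 0.61, SE 0.137, adjusted p = 0.00969), which encodes FLIP, an inhibitor of caspase 8. Lower were Birc3 (log2 -0.84, SE 0.145, adjusted p = 0.0036) and Birc2 (log2 -0.71, SE 0.115, adjusted p = 0.00278), which encode the ubiquitin ligases cIAP2 and cIAP1 of the TNF receptor pathway. Among 18 regulators of the family, 6 rose and none fell, and the 33.3% called was close to the share of all genes tested. Ddit3, which encodes the stress transcription factor CHOP, rose from 4.84, 5.37 and 4.88 to 122, 68.7 and 113 FPKM (log2 4.50, SE 0.272, adjusted p = 0.00012). Fbxw7, part of a ubiquitin ligase that marks MCL1 for degradation, rose from 2.81, 2.35 and 2.49 to 10.5, 4.10 and 9.57 FPKM (log2 1.84, SE 0.341, adjusted p = 0.00468). Vdac3, a channel of the outer mitochondrial membrane, rose by 0.59 (SE 0.110, adjusted p = 0.00476) and Bag4, a co-chaperone, by 0.52 (SE 0.137, adjusted p = 0.0193).

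Of the 20 calls in these other lists, 11 held when each library was left out in turn and 9 were lost for at least 1 library, Dffb for 8 of the 9 (adjusted p up to 0.128), Naip2 for 4 (up to 0.0632) and Bag4 for 4 (up to 0.0736). The 11 included Bbc3, Bmf, Casp6, Endog, Ddit3 and Fbxw7. With RANKL against PBS, where 3.61% of all genes tested were called, the same lists gave 0 calls of 11, 1 of 14, 0 of 10 and 1 of 18. The called genes were Cycs, which encodes cytochrome c (log2 1.24, SE 0.230, adjusted p = 0.0237), and Vdac1, another outer membrane channel (log2 0.41, SE 0.0906, adjusted p = 0.0433). Neither call held for every library left out. DESeq2 also called Bax and Pmaip1. The vitamin libraries enter the shared estimate of the spread. Without vitamin replicate 2, Bax (adjusted p = 0.0113), Bbc3 (0.0447) and Pmaip1 (0.0248) passed the threshold in the edgeR fit, and Pmaip1 also passed without vitamin replicate 1. With all 9 libraries, edgeR gave log2 differences of -0.50 for Bax (adjusted p = 0.114) and -0.66 for Bbc3 (adjusted p = 0.498). It gave 0.82 for Pmaip1 (adjusted p = 0.0867) and -0.34 for Bcl2l2 (adjusted p = 0.179). With the vitamins against PBS, the lists gave 2 higher and 2 lower of 11, 2 and 5 of 14, 3 and 3 of 10, and 9 and 1 of 18, beside 40.8% called among all genes tested. Of these 27 calls, 14 held when each library was left out in turn and 13 were lost for at least 1 library. The largest of these was again Ddit3 (log2 4.24, SE 0.268, adjusted p = 9.62e-05), with Bmf (log2 -4.22, SE 0.579, adjusted p = 0.000869) the largest decrease. Bcl2l2 fell by 0.55 (SE 0.123, adjusted p = 0.00735) on the log2 scale, and its call held for each library left out. Bbc3 was higher by 1.35 (SE 0.458, adjusted p = 0.0416) and Pmaip1 by 0.70 (SE 0.227, adjusted p = 0.035), but leaving out 1 library kept the Bbc3 call in only 1 of 9 fits and the Pmaip1 call in 2 of 9. Pmaip1 differed by 0.47 without vitamin replicate 2. Bax differed by 0.04 (adjusted p = 0.863).

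**Figure D4:**
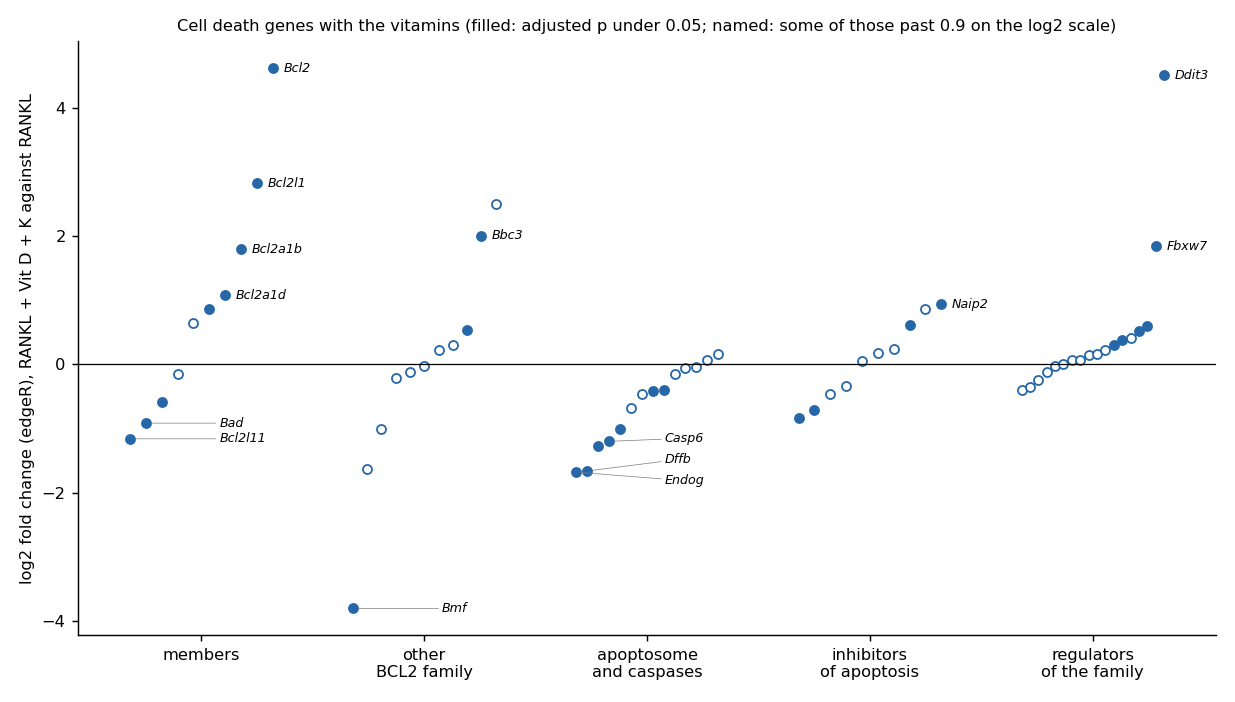
Fitted log2 fold change (y axis) of the vitamin group against the RANKL group for each gene tested in 5 lists, ordered within a list, with filled points for an adjusted p under 0.05 and names for called genes past 0.9 that the text describes. Bcl2 (4.61) and Ddit3 (4.50) stood highest, Bmf (-3.80) lowest, and every filled point of the apoptosome and caspase list lay below 0.

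Genes that moved most like each called member were sought among 11174 genes with a mean of at least 1 FPKM in a group. Counts were scaled for library size, put on the log2 scale and centred on each gene's mean over the 9 libraries. The distance was the root-mean-square difference between these values of 2 genes. Asns, which makes asparagine, and Dusp4, a MAP kinase phosphatase, were nearest to Bcl2, at distances of 0.362 and 0.438. Asns had group means of 3.58, 6.63 and 99.5 FPKM with PBS, RANKL and the vitamins. Rapgef5 (0.151) and Ercc6 (0.165) were nearest to Bcl2l1, Cxcl16 (0.119) and Lpin1 (0.122) to Bcl2l11, and Prkcd (0.0669) and Anks1 (0.0731) to Mcl1. Nek6 (0.205) and Nrp1 (0.266) followed the fall and return of Bcl2a1b most closely. Bid was nearest to Pir (0.132) and Sfn (0.135), Bad to Lgals9 (0.0776) and Hadh (0.0798), Bcl2a1d to Trim35 (0.186) and Rnd1 (0.210), and Bcl2a1a to Hspd1 (0.209) and Mif (0.274). With 3 libraries in each group, such likeness describes these libraries only.

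Promoter sequence was read for the members from RefSeq (GRCm38.p6), as the 250 bases before each annotated start, and all 10 had at least 1 entry (14 in all). Windows of Bcl2, Bcl2l1 and Bcl2l11, which were called in both comparisons of the vitamin group, are shown on the strand of the gene, with motif matches in capitals.
Bcl2, chr1:106714291-106714540, minus strand: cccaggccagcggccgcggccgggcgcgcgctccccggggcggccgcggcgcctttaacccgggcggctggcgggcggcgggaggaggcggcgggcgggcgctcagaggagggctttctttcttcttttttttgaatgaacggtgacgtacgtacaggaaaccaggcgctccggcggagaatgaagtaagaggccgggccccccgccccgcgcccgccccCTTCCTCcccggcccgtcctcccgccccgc
Bcl2l1, chr2:152831729-152831978, minus strand: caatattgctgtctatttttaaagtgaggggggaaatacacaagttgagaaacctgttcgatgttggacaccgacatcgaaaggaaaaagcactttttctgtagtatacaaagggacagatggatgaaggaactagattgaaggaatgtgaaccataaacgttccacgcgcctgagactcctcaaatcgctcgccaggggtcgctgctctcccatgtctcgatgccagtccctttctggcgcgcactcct
Bcl2l11, chr2:128125788-128126037, plus strand: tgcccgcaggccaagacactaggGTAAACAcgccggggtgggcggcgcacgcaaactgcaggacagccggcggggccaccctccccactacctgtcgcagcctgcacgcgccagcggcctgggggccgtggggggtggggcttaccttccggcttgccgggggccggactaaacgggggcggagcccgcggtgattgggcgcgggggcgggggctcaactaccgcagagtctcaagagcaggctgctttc
The Bcl2 window was 74.8% G or C with 36 CpG pairs and the Bcl2l11 window 72% with 24, whereas the Bcl2l1 window was 47.6% with 12. The median over all 32851 windows was 52.4% G or C.

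A set of 6 known motifs was searched on both strands of these windows. They were NF-kB (GGG and TTTCC with any 2 bases between, in 1.41% of all 32851 windows), FOXO (TGTTTAC, 3.17%), CHOP with ATF4 (TGATGCAA, 0.791%), the vitamin D receptor as a direct repeat (GGTCA, any 3 bases, GGTCA, 0.067%), AP-1 (TGANTCA, 6.75%) and PU.1 (GAGGAAG, 10.6%). The Bcl2 window held the PU.1 letters 30 bases before the start, read from the other strand. The Bcl2l11 window held the FOXO letters 227 bases before the start, and the printed Bcl2l1 window held none of the 6. NF-kB letters stood 28 bases before the start of Mcl1 and 218 bases before another annotated start of Bcl2l1. Bak1 held the PU.1 letters at 21 bases, Bad held them at 189 and 145 bases before 1 of its starts, and Bid held none of the motifs. The vitamin D receptor letters were in no member's window. A match describes letters and not a bound site, and an absent match says only that these letters were not in the window.

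The A1 copies share their promoters as well. A stretch of 60 bases upstream of each gene start is shown because it carries the AP-1 letters and the PU.1 letters of all copies, in capitals.
Bcl2a1a, chr9:88956790-88956849, plus strand: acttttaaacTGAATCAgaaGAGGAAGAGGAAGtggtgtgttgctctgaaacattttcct
Bcl2a1b, chr9:89199099-89199158, plus strand: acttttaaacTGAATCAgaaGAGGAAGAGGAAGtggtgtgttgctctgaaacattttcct
Bcl2a1d, chr9:88731915-88731974, minus strand: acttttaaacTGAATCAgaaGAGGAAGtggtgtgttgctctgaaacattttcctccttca
Bcl2a1a and Bcl2a1b held 2 PU.1 matches that overlap by a base, and Bcl2a1d held 1, and the AP-1 letters overlapped neither. The letters TGATGCAA lay in the RefSeq entry of every copy, which reaches past the annotated start. In Bcl2a1b they lay 40 bases before the start, inside the 250-base window, whereas the windows of Bcl2a1a and Bcl2a1d did not hold them. Aligned over their promoter windows, Bcl2a1a and Bcl2a1b were identical at 99.5% of 206 columns, Bcl2a1a and Bcl2a1d at 95.2% of 250, and Bcl2a1b and Bcl2a1d at 96.1% of 206.

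T cell markers summed to 0.338 to 0.639 FPKM with PBS, 2.26 to 3.92 with RANKL and at most 0.21 with the vitamins, from 2 of 6 listed genes with a row. Nearly all of this was Cd4, while Trac, of the T cell receptor, was at 0 in all PBS and vitamin libraries and at most 0.435 FPKM with RANKL. B cell markers summed to at most 0.795 FPKM in any library, stromal markers to at most 0.601, dendritic cell markers to at most 0.716 and mast cell and basophil markers to at most 0.0727. The part of these cells in the members' values was not tested.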

How the data were processed

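RNA-seq of 9 BMDM libraries was used. Per the submitters' notes, the authors trimmed reads with cutadapt 1.9, aligned them with HISAT2 2.0.4 and assembled and quantified transcripts with StringTie 1.3.4d. The deposited table gives a whole-number count and an FPKM value (scaled by the authors for gene length and library size) for each gene and library. Values of 4 were over-represented among the counts (2.22 times their neighbours 3 and 5), and 1 count need not be 1 read. The notes name the human build hg38, but the coordinates are of mouse GRCm38: 24678 of 28294 gene IDs shared with GENCODE M21 (87.2%), and all 10 members, had the same coordinates. The authors' own comparison columns were not used.

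Counts of all 3 groups were fitted together by edgeR 4.0.16 (R 4.3.3; filterByExpr, TMM, quasi-likelihood F test, Benjamini-Hochberg adjustment over 17002 genes, threshold 0.05). SE is the absolute log2 difference divided by the square root of F, and intervals are 95%. The fit was tested on simulated counts. DESeq2 1.42.0, limma 3.58.1 on log2(FPKM + 0.1), other scalings and filters, and leaving out each library were alternatives. Same-numbered RANKL and PBS libraries deviated together (correlations 0.122, 0.219 and 0.155), so the number may pair them, on the data's evidence alone. The edgeR fit above did not use the number, and a fit with it as a block was an alternative. No replicate pair was alike within sampling noise.

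Members and gene lists were chosen with earlier results of these data known. All members are named. Of other lists, calls are counted and up to 4 of the largest named, with Bax, Bbc3, Pmaip1 and Bcl2l2 always given. Some genes of the lists are not reported here. For each called member, the 2 nearest genes are named.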

Additional observations from a re-analysis of the deposited data

How the results depend on the processing

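With the vitamins against RANKL, 8 members were called in the edgeR fit and 7 to 9 with 1 library left out. Against PBS, the 7 calls became 7 to 8. With RANKL against PBS, the single call became 2 under DESeq2, 2 with only these groups fitted, 2 with the replicate number as a block and 0 to 2 with 1 library left out, and over all genes 614 calls became 1699, 1736, 825 and 126 to 1903. The block, for numbers that did not pair the vitamin libraries (correlations with RANKL 0.00625, 0.0428 and 0.107, and with PBS -0.0216, 0.0217 and 0.0237), left 8 and 7 members called. With the vitamins against RANKL, 202 values of single members kept direction and call over the alternatives, 5 lost it (Bcl2a1d) and 1 gained it (Bak1), and over all genes 5725 calls became 3199 to 8259 with 1 library left out. Bcl2 changed by 2.60 on log2(FPKM + 1), where the pseudocount exceeds its RANKL level.

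Scaling moved the median of all genes. With the vitamins against RANKL it was -0.0435 under TMM, -0.132 under upper-quartile scaling and -0.164 on log2(FPKM + 0.1). The share of calls that were higher went from 48.8% to 40.9% and 34.7%, with 38.2% and 34.4% at pseudocounts of 1 and 0.01. For RANKL against PBS it went from 65.1% to 79% at a pseudocount of 0.01. The members' calls kept their directions under these scalings.

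Signs turned only for values not called in the edgeR fit, and no value of turned sign was itself called. Bad with RANKL against PBS was 0.00608 with median-of-ratios factors, 0.00352 with upper-quartile scaling, 0.00607 under DESeq2, 0.104, 0.096 and 0.105 on log2 FPKM with pseudocounts of 0.1, 1 and 0.01, 0.0432 unfiltered, 0.0317 at a mean of at least 1 FPKM, 0.0371 with only these groups, 0.0317 with counts divided by 4 and -0.0683 to 0.0919 with 1 library left out. Mcl1 was 0.0489, 0.0487 and 0.0489 on log2 FPKM and -0.117 to 0.0138 with 1 library left out, and Bcl2l1 was -0.0595 to 0.31. With the vitamins against PBS, Bak1 was -7.66e-05 and Bax -0.0366 under upper-quartile scaling. Bax was -0.00598, -0.00583 and -0.00600 on log2 FPKM. With 1 library left out, Bak1 ranged from -0.131 to 0.234, Bax from -0.0547 to 0.193, Acp5 from -1.60 (without vitamin replicate 2, adjusted p = 0.00065 by edgeR, a call gained) to 0.153 and Oscar from -4.82 to 0.577, and Pmaip1 against RANKL from -0.356 to 0.0846. The causes were not tested.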
